A study of Mus musculus with 8 samples.

Results

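The secreted angiogenic factors examined here were 9 genes taken by symbol from the deposited expression table of embryonic mouse hearts: *Vegfa*, *Vegfb*, *Vegfc*, *Pgf*, *Adm*, *Adm2*, *Angpt1*, *Angpt2* and *Apln*. All 9 were found among the 24385 features of the table, and 7 of them passed the mean level required for testing. RNA sequencing had been done on hearts of embryonic day (E) 8.5 and 9.5 from wild type (WT) embryos and from *Dgcr8* conditional knockout (cKO) embryos. Each of the 4 groups had 2 libraries, 8 in all, which the methods call independent biological replicates. *Dgcr8* encodes the RNA-binding subunit of the microprocessor, which cuts primary microRNA (miRNA) transcripts in the nucleus. The comparisons ask how the absence of that subunit from the heart lineage changes transcript levels at the looping heart tube and at the stage when chambers appear.

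The mice were on a C57BL/6 background. The cKO embryos had 1 *Mesp1* Cre allele, loxP sites in both *Dgcr8* alleles (*Dgcr8* loxP/loxP) and the *ROSA26* reporter mT/mG/+, so that the *Mesp1* gene drove Cre recombinase. *Mesp1* is active in early mesoderm, so deletion reaches the progeny of those cells, among them heart muscle and endocardium. By the study's methods the controls, called WT, carried the same floxed *Dgcr8* alleles and the same mT/mG reporter but no Cre, and the Cre allele itself therefore also differed between the groups. No treatment was given, and the labels do not say how many hearts made a library. In the E8.5 WT libraries *Dgcr8* stood at 7.10 and 8.60 FPKM (fragments per kilobase of transcript, scaled to the mapped fragments of a library), and the cKO hearts of that stage gave 1.64 and 4.67. A day later the WT hearts gave 3.49 and 3.23 FPKM and the cKO hearts 1.15 and 1.77. The cKO libraries were lower than the WT libraries at both stages, and E8.5 cKO replicate 2 kept the most *Dgcr8* among the 4 cKO libraries.

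VEGF proteins bind receptor tyrosine kinases on endothelial cells, where *Vegfa* acts mainly through *Kdr*, *Vegfc* through *Flt4*, and *Vegfb* and *Pgf* through *Flt1*. Angiopoietin 1 activates the receptor encoded by *Tek*, and angiopoietin 2 often opposes it. Adrenomedullin and intermedin, the products of *Adm* and *Adm2*, signal through the *Calcrl* receptor joined to a RAMP protein, and apelin signals through *Aplnr*. *Vegfa*, *Adm* and *Angpt2* are well known as genes that low oxygen induces, and *Adm2* as a gene that the transcription factor ATF4 induces in the integrated stress response.

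The promoters of 4 members that were higher in both cKO libraries at E9.5 are shown so that the elements bound by oxygen-regulated factors can be looked for. They are the 250 bases before the annotated start, from RefSeq on GRCm38.p6, in the direction of transcription. Capitals mark ACGTG or GCGTG, the cores of the hypoxia response element, on either strand, so that a match on the opposite strand appears as CACGT or CACGC. The windows lie at chr7:110627407-110627656 on the plus strand for *Adm*, chr15:89322470-89322719 on the plus strand for *Adm2*, chrX:48034854-48035103 on the minus strand for *Apln* and chr17:46032378-46032627 on the minus strand for the upstream start of *Vegfa*.
Adm: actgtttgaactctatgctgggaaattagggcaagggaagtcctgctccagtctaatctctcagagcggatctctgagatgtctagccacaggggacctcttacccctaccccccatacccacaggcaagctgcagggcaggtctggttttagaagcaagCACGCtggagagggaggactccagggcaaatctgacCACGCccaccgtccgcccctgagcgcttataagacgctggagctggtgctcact
Adm2: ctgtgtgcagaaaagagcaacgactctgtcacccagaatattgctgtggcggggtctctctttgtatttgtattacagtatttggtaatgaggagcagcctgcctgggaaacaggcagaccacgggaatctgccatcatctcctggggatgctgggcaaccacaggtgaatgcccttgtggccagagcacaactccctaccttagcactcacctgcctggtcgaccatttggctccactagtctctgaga
Apln: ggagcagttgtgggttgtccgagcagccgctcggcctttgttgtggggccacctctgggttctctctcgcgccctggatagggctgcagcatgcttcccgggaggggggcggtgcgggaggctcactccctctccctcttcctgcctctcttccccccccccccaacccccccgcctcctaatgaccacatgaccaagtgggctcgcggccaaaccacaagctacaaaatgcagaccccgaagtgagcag
Vegfa: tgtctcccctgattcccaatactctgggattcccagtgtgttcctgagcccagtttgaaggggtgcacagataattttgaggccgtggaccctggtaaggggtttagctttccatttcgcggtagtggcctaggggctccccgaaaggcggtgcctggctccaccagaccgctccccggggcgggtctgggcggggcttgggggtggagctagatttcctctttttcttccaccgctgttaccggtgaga

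The *Adm* window held GCGTG at 2 places, 90 and 54 bases before the start and both on the minus strand, and the other 3 windows held neither core. Of 32851 RefSeq promoter windows of the same length, 38.6% held at least 1 of the cores. A downstream start of *Vegfa* had both cores in its window, and *Vegfb* and the upstream start of *Pgf* had GCGTG in theirs. That *Vegfa* window, chr17:46025164-46025413, lies inside the gene, within the unit transcribed from the upstream start. The C/EBP and ATF composite element TGATGNAA was in none of the windows of the 7 members found in the RefSeq table (*Angpt1* and *Angpt2* were the others), against 3.452% of all windows. These matches describe letters in short windows, and distal elements were not searched.

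The cardiomyocyte markers summed to 13580 to 48348 FPKM and the 10 endothelial markers to 87.8 to 168 FPKM in the 8 libraries, so heart muscle and endothelial transcripts were present throughout. Some features of the libraries touch the members. E8.5 cKO replicate 2 stood apart by trophoblast transcripts, with 1948 FPKM summed over 10 markers against 52.5 to 347 in the other 7 libraries, and by the decidual gene *Prl8a2*, with 5104 FPKM against 0.746 to 1141. In that library 8 of the 10 trophoblast markers reached 1 FPKM, against 3 to 7 in the others, and *Prl3b1* was listed at 0 in all 4 libraries of E8.5. E8.5 cKO replicate 1 held 7536 FPKM of yolk sac endoderm markers against 873 to 2891 in the other 3 libraries of E8.5. E8.5 WT replicate 1 held 519 FPKM of uterine natural killer cell markers against 0.53 to 2.44 elsewhere. The share of FPKM in loci under 300 bp ran from 15.7% to 54.5%, highest in E9.5 cKO replicate 1. Relative depth differed by at most 1.45 times, and the absolute depth is unknown. Fewer cells of a type and less RNA per cell cannot be told apart in libraries of whole hearts.

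*Adm* had the highest mean of the members in every group, at 20.4 ± 1.07 FPKM in E8.5 WT and 19.1 ± 5.32 FPKM in the cKO hearts of E9.5 (SD, n = 2). In E8.5 WT it was followed by *Angpt1*, *Vegfb*, *Pgf*, *Angpt2*, *Vegfa*, *Adm2*, *Vegfc* and *Apln*. The libraries of *Vegfb* and *Pgf*, of *Pgf* and *Angpt2*, of *Adm2* and *Vegfc* and of *Vegfc* and *Apln* overlapped, and the other neighbours in that order did not. In E9.5 WT *Vegfb* and *Pgf* came after *Adm*, whose libraries overlapped those of *Vegfb*, and *Adm2* and *Apln* were at the bottom. In replicate 2 of that group *Adm*, at 1.61 FPKM, was below *Vegfb* and *Angpt1*, at 3.51 and 3.07 FPKM. In E9.5 cKO the order began with *Adm*, *Vegfb*, *Adm2* and *Vegfa*, and the libraries of these 4 did not overlap. *Adm2* thus stood at the eighth place in E9.5 WT and at the third in E9.5 cKO. FPKM is a level per length, which allows these comparisons between genes.

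**Figure D1:**
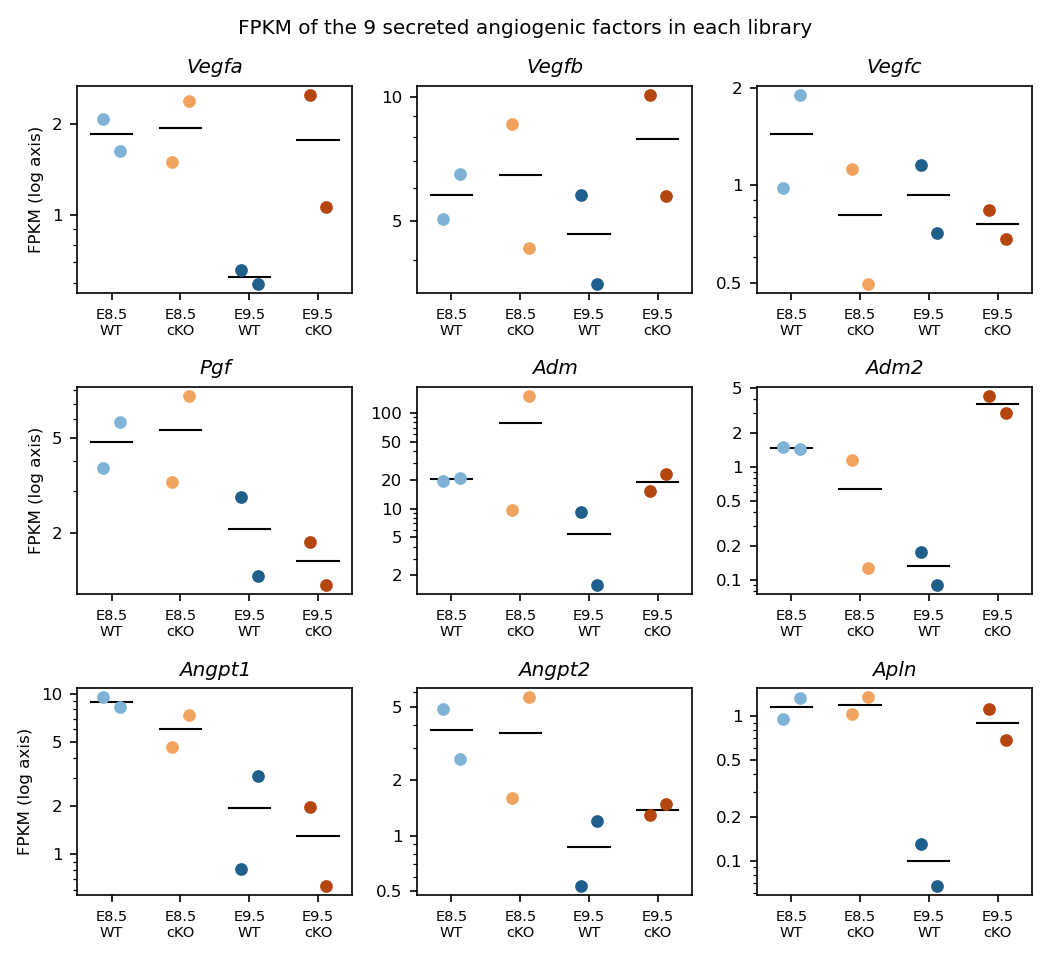
FPKM of each of the 9 members on a log axis, with a point for each library, a line at the mean of each group, and a column for each stage and genotype. *Vegfa* and *Apln* were lowest in the E9.5 WT libraries, and *Adm* had a single high point of 148.7 FPKM in E8.5 cKO.

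At E9.5, 4 of the 7 tested members, *Vegfa*, *Adm*, *Adm2* and *Angpt2*, were above the WT libraries in both cKO libraries, and none was below. Of all 10018 tested genes, 21% were higher without overlap and 31.1% lower. *Apln*, below the level required for testing, was also higher in both cKO libraries, which makes 5 of the 9 members. By limma's moderated test none of the 7 passed an adjusted p under 0.05 with at least 1.5-fold change, a rule that 0.18% of all genes met. At an unadjusted p under 0.05 with the same fold, 2 members, *Adm2* and *Vegfa*, passed, against 15.1% of all genes. *Adm2* reached the mean required for testing only through its E9.5 cKO libraries, so its place in these counts is not independent of its rise. The median difference of the 7 members was 0.64 on the log2(FPKM + 1) scale and that of all genes -0.07. An exact permutation test of 2 libraries against 2 cannot give a two-sided p below 0.333.

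*Adm2* (chromosome 15, 89322720 to 89324730 on GRCm38), the intermedin gene, measured 0.177 and 0.0910 FPKM in the WT hearts of E9.5 and 4.24 and 3.05 FPKM in the cKO hearts. Both cKO libraries were far above both WT libraries, and the ratio of the group means, 3.64 ± 0.844 over 0.134 ± 0.0609 FPKM (SD, n = 2), was 27.2. On the log2(FPKM + 1) scale the difference was 2.02 (SE 0.32, 95% interval 1.27 to 2.77), with an unadjusted p of 0.000256 and an adjusted p of 0.0733 by limma. That p missed the threshold for the deposited scale. It passed in 2 of 13 alternative fits, with a difference of 2.36 and an adjusted p of 0.0184 after median-ratio scaling by limma and 2.21 and 0.0375 after quantile normalization. Both kept the filter of 1 FPKM, which *Adm2* met only through its E9.5 cKO libraries. The means of the other groups, 1.47, 0.637 and 0.134 FPKM, average below 1 FPKM. The fit without a filter did not call *Adm2*. In the other 11, scaling on loci of at least 300 bp among them (1.97, adjusted p 0.0850), the adjusted p ran from 0.0713 to 0.649. At E8.5 *Adm2* measured 1.5 and 1.44 FPKM for WT and 1.15 and 0.128 FPKM for cKO. The cKO libraries were then the lower ones, 1 of them only slightly, and the difference of -0.66 (SE 0.32) had an adjusted p of 0.590 by limma. Without E8.5 cKO replicate 2 it was -0.20, where the median of all genes was -0.24.

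*Adm* (chromosome 7, 110627669 to 110629819), which encodes adrenomedullin, a vasodilator peptide needed for vessels of the embryo, measured 9.16 and 1.61 FPKM in the WT hearts of E9.5 and 15.3 and 22.8 FPKM in the cKO hearts. The 2 WT libraries differed from each other by more than the nearer WT and cKO libraries did. The difference of 1.94 had a wide 95% interval, from -0.62 to 4.49, and an adjusted p of 0.450 by limma. At E8.5 it measured 19.6 and 21.1 FPKM for WT and 9.63 and 148.7 FPKM for cKO. The cKO libraries lay on either side of the WT libraries, and the high value came from the library with the trophoblast and decidual transcripts. The E8.5 difference was 0.90 (SE 1.11), and it was -1.01 without that library. The annotated transcript Gm28863, a long non-coding RNA, overlaps *Adm*, and the strand used in counting is not stated in the sources used here.

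**Figure D2:**
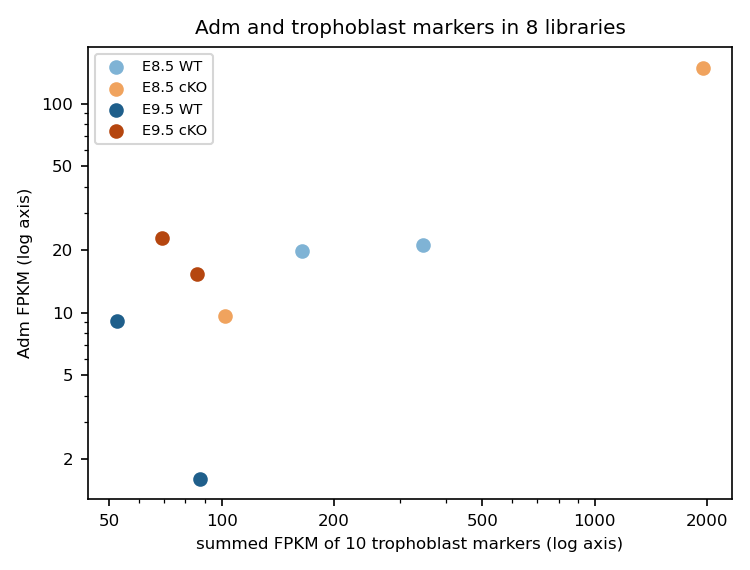
FPKM of *Adm* against the summed FPKM of 10 trophoblast markers in the 8 libraries, both on log axes, coloured by group. E8.5 cKO replicate 2 stood at the upper right, at 1948 FPKM of markers and 148.7 FPKM of *Adm*.

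The trophoblast list included *Prl3d1*, a placental lactogen gene, at 347 FPKM in that library and at 0.466 FPKM in E8.5 cKO replicate 1. Within the list, *Hand1*, which the heart also expresses, was at 45.4 to 160 FPKM in all libraries. In the WT hearts of E8.5 *Prl3d1* was at 20.5 and 58.7 FPKM and between 0.568 and 4.82 FPKM in the 4 E9.5 libraries. The part of these transcripts in the E8.5 *Adm* values was not tested. *Pgf* and *Angpt2* were also highest in E8.5 cKO replicate 2, at 7.50 and 5.64 FPKM.

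*Vegfa* (chromosome 17, 46016993 to 46032377), the principal ligand of the *Kdr* receptor, measured 0.660 and 0.595 FPKM in the WT hearts of E9.5 and 2.48 and 1.06 FPKM in the cKO hearts. The WT libraries lay close together and below both cKO libraries, which themselves differed. The difference was 0.72 (SE 0.30, 95% interval 0.02 to 1.42), with an unadjusted p of 0.0462 and an adjusted p of 0.306 by limma. The difference was 0.34 without E9.5 cKO replicate 1 and 1.10 without replicate 2. The higher of the cKO values was in the library with the largest share of FPKM in loci under 300 bp. At E8.5 *Vegfa* measured 2.07 and 1.63 FPKM for WT and 1.5 and 2.38 FPKM for cKO, and the groups overlapped with a difference of 0.03 (95% interval -0.67 to 0.73).

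*Vegfb* (chromosome 19, 6982472 to 6987651), a ligand of *Flt1*, measured 5.79 and 3.51 FPKM in the WT hearts of E9.5 and 10.1 and 5.74 FPKM in the cKO hearts. The lower cKO library lay just under the higher WT library, so the groups overlapped, and the difference of 0.64 (SE 0.39) had an adjusted p of 0.480 by limma. At E8.5 it measured 5.05 and 6.51 FPKM for WT and 8.60 and 4.29 FPKM for cKO. *Vegfc* (chromosome 8, 54077532 to 54186454), the lymphangiogenic ligand of *Flt4*, was too low on average to be tested among the 10018 genes. Its values were 0.982, 1.89, 1.12 and 0.498 FPKM in the WT and then the cKO libraries of E8.5, and 1.15, 0.711, 0.839 and 0.684 FPKM in those of E9.5. The groups overlapped at both stages, and in the fit of all 19580 features with a value the E9.5 difference was -0.13 (SE 0.27). The protein-coding gene Gm33153 overlaps *Vegfc*.

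*Pgf* (chromosome 12, 85166639 to 85177313), placental growth factor, measured 2.82 and 1.32 FPKM in the WT hearts of E9.5 and 1.83 and 1.21 FPKM in the cKO hearts, with overlap and a difference of -0.25 (SE 0.40, 95% interval -1.18 to 0.68). At E8.5 it measured 3.76 and 5.87 FPKM for WT and 3.29 and 7.50 FPKM for cKO. There the cKO libraries lay on either side of the WT libraries.

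*Angpt1* (chromosome 15, 42424667 to 42676977), which encodes the agonist of the *Tek* receptor, measured 9.48 and 8.24 FPKM in the WT hearts of E8.5 and 4.66 and 7.37 FPKM in the cKO hearts. Both cKO libraries were lower, with a difference of -0.52 (SE 0.44) and an adjusted p of 0.666 by limma. At E9.5 it measured 0.815 and 3.07 FPKM for WT and 1.97 and 0.638 FPKM for cKO, and the groups overlapped. *Angpt2* (chromosome 8, 18690263 to 18741562) measured 0.537 and 1.20 FPKM in the WT hearts of E9.5 and 1.29 and 1.48 FPKM in the cKO hearts. The lowest cKO library was only slightly above the highest WT library, and the difference of 0.38 (SE 0.45) had an adjusted p of 0.765 by limma. At E8.5 it measured 4.89 and 2.62 FPKM for WT and 1.61 and 5.64 FPKM for cKO. *Angpt2* lies within *Mcph1*, a regulator of chromosome condensation with 1.16 to 5.27 FPKM, and *Angpt1* overlaps the long non-coding RNA Gm41313.

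*Apln* (chromosome X, 48025146 to 48034852), the apelin gene, which endothelial tip cells are known to express, measured 0.131 and 0.0675 FPKM in the WT hearts of E9.5 and 1.11 and 0.687 FPKM in the cKO hearts. At E8.5 it measured 0.954 and 1.34 FPKM for WT and 1.03 and 1.34 FPKM for cKO. The 2 E9.5 WT libraries were thus far below the other 6, which lay between 0.687 and 1.34 FPKM. The ratio of the E9.5 group means was 9.06. In the fit of all 19580 features the E9.5 difference was 0.78 (SE 0.18, 95% interval 0.34 to 1.22), with an unadjusted p of 0.00482 and an adjusted p of 0.244 by limma. Corrected for relative depth, the 8 *Apln* values stood in whole-number proportions to within 0.05, and the smallest such numbers at E8.5 were 39 and 76 for WT and 58 and 57 for cKO. Those at E9.5 were 6 and 4 for WT and 56 and 37 for cKO. If these are fragments, the E9.5 WT values may rest on as few as 6 and 4 of them. No other member gave such proportions.

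**Figure D3:**
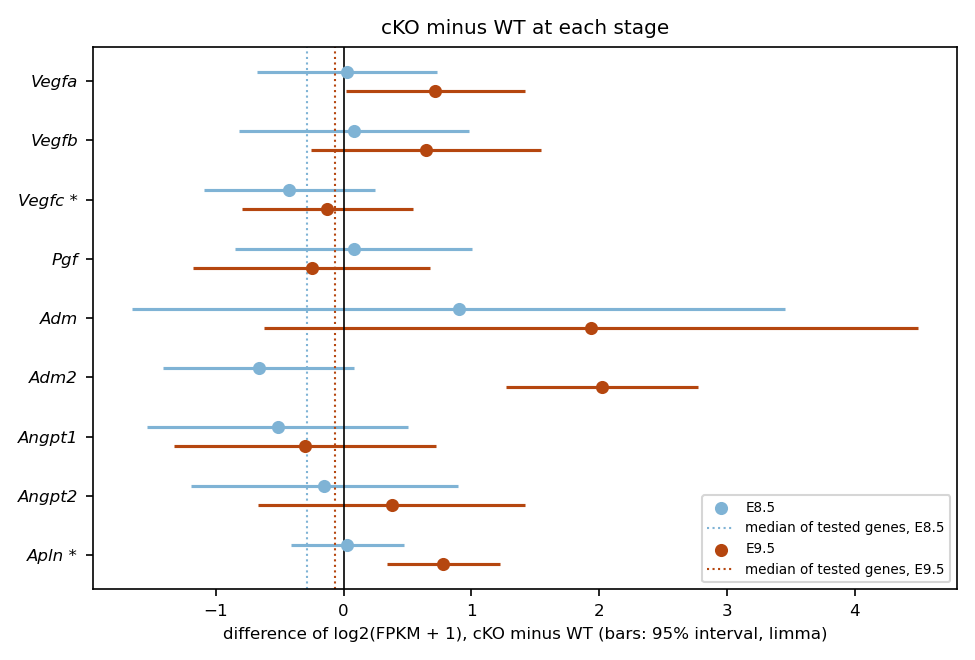
Difference of log2(FPKM + 1) between cKO and WT for each member at E8.5 and E9.5, with the 95% interval of limma as bars and the median of the tested genes as dotted lines; members with an asterisk were tested only in the fit of all features. At E9.5 the intervals of *Vegfa*, *Adm2* and *Apln* lay above 0, and at E8.5 every interval included 0.

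At E8.5 no member was called, against 0.00998% of all genes, and none passed an unadjusted p under 0.05 with 1.5-fold change, against 7.14%. No member was higher in the cKO without overlap, where 2.54% of all genes were, and 2 of the 7 tested members, *Adm2* and *Angpt1*, were lower without overlap, where 40.1% were. The median difference was 0.03 for the members and -0.28 for all tested genes.

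Whether the cKO effect differed between the stages was tested directly as an interaction in the same fit. For *Adm2* the difference of the effects, E9.5 minus E8.5, was 2.69 (SE 0.46, 95% interval 1.63 to 3.75), with an unadjusted p of 0.000389 and an adjusted p of 0.238 by limma. For *Apln* it was 0.75 (SE 0.26) in the fit of all features, with an adjusted p of 0.752. The other members had adjusted p-values of at least 0.775 by limma. No member was called, against 0.0399% of all genes, and 1 of the 7 passed an unadjusted p under 0.05 with 1.5-fold change, against 7.18%. That member was *Adm2*, which met the filter for testing only through its E9.5 cKO libraries. *Adm2* passed, at 3.15 and an adjusted p of 0.0458 by limma, when E8.5 cKO replicate 1 was left out. That fit kept a lone E8.5 cKO library, replicate 2 with its trophoblast transcripts and 0.128 FPKM of *Adm2*, and assumed that it varies like the other groups. Without replicate 2 instead, the interaction was 2.22 and was not called.

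As WT hearts went from E8.5 to E9.5, 3 of the 7 tested members fell by the test, *Angpt1*, *Angpt2* and *Adm2*, and none rose. The share called among all genes was 48.1% (140 genes higher and 4683 lower), with a median of -0.84 for all genes and -1.12 for the members. *Angpt1* changed by -1.86 (SE 0.44, adjusted p 0.0173 by limma), *Angpt2* by -1.33 (SE 0.45, adjusted p 0.0427) and *Adm2* by -1.12 (SE 0.32, adjusted p 0.0271). *Apln* fell by 0.96 in the fit of all features, with an adjusted p of 0.0294 by limma. *Vegfa* had -0.81 with an adjusted p of 0.0576, *Pgf* -0.94 with 0.0804 and *Adm* -2.05 with 0.143 by limma. In all, 5 of the 7 passed an unadjusted p under 0.05 with 1.5-fold change, against 59.4% of all genes. The E9.5 libraries were lower without overlap for 6 of the 7, all but *Vegfb*, against 80.1% of all genes, and higher for none, against 5.43%. The members' counts were near or below the shares of all genes, and no member was called after median-ratio scaling or quantile normalization, where 321 genes were higher and 69 lower, and 88 higher and 27 lower. With the median of all genes subtracted, *Adm* was at -1.22, *Angpt1* at -1.02, *Angpt2* at -0.49, *Adm2* at -0.29, *Pgf* at -0.11, *Vegfa* at 0.03 and *Vegfb* at 0.55. The fit of all features, which gave the *Apln* value, had a median of -0.36. Leaving out any single WT library lowered the number of members called, and the calls among all genes fell in the same fits. In them *Angpt1* ran from -2.44 to -1.27, *Angpt2* from -1.68 to -0.98 and *Adm2* from -1.18 to -1.07. The trophoblast sum was 165 and 347 FPKM in the WT hearts of E8.5 and 52.5 and 87.3 FPKM in those of E9.5. Without *Hand1* it was 97.3 and 257 FPKM and then 7.15 and 15.6. Decidual markers summed to 1118 and 2136 FPKM and then to 509 and 710, and macrophage markers to 33.7 and 9.86 FPKM and then to 1.26 and 0.85, with both tested macrophage markers called lower. Most of the decidual sum at E9.5 was *Cryab*, at 506 and 704 FPKM, while *Prl8a2* went from 449 and 1141 to 1.23 and 5.09 FPKM. Yolk sac endoderm markers went the other way, from 873 and 2891 FPKM to 6799 and 5133. Cardiomyocyte markers summed to 13580 and 21055 FPKM and then to 33694 and 35353, with 5 of 10 called higher. Of 10 erythroid markers 5 were called lower and 1 higher, 6 of 8 endothelial markers were lower without overlap, and the uterine natural killer cell markers summed to 519 and 2.14 FPKM and then to 0.53 and 1.97. The part of these lists in the members' values was not tested.

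In cKO hearts the same interval gave 3 calls in different directions, against 30.6% of all genes called (205 higher and 2857 lower, or 400 and 77 after median-ratio scaling). *Adm2* rose by 1.56 (SE 0.32, adjusted p 0.0179 by limma), and by 2.05 (adjusted p 0.0141) after median-ratio scaling. It entered the tested genes only through its E9.5 cKO libraries, the higher group of this comparison. *Angpt1* changed by -1.64 (SE 0.44, adjusted p 0.0314 by limma) and *Pgf* by -1.27 (SE 0.40, adjusted p 0.0470). The *Angpt1* call was lost in 6 of 13 alternative fits and the *Pgf* call in 8 of 13, median-ratio scaling and quantile normalization among them for both genes. The same 3 members passed an unadjusted p under 0.05 with 1.5-fold change, against 46.2% of all genes. *Adm2* was the member higher at E9.5 without overlap, against 7.05% of all genes, and *Pgf*, *Angpt1* and *Angpt2* were the 3 that were lower, against 62.7%. The median was -0.80 for the members and -0.64 for all genes. *Adm* had -1.02, and 0.89 without E8.5 cKO replicate 2. The trophoblast sum was 102 and 1948 FPKM in the cKO hearts of E8.5 and 86.1 and 69.4 FPKM in those of E9.5. Without *Hand1* it was 23.2 and 1788 FPKM and then 35.6 and 20.2. All 5 tested decidual markers were lower at E9.5 without overlap, against 62.7% of all genes. The cardiomyocyte sum was 28384 and 19071 FPKM and then 46850 and 48348, with 4 of 10 called higher. The part of these lists was not tested. With each library left out in turn, the difference ran from 1.10 to 2.03 for *Adm2*, -2.07 to -1.21 for *Angpt1* and -1.76 to -0.78 for *Pgf*. All 3 calls were lost without either E9.5 cKO library, where calls among all genes fell away as well. *Vegfa* had -0.12 and *Apln* -0.21 in cKO, beside -0.81 and -0.96 in WT, and those differences between genotypes are the interactions given above.

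**Figure D4:**
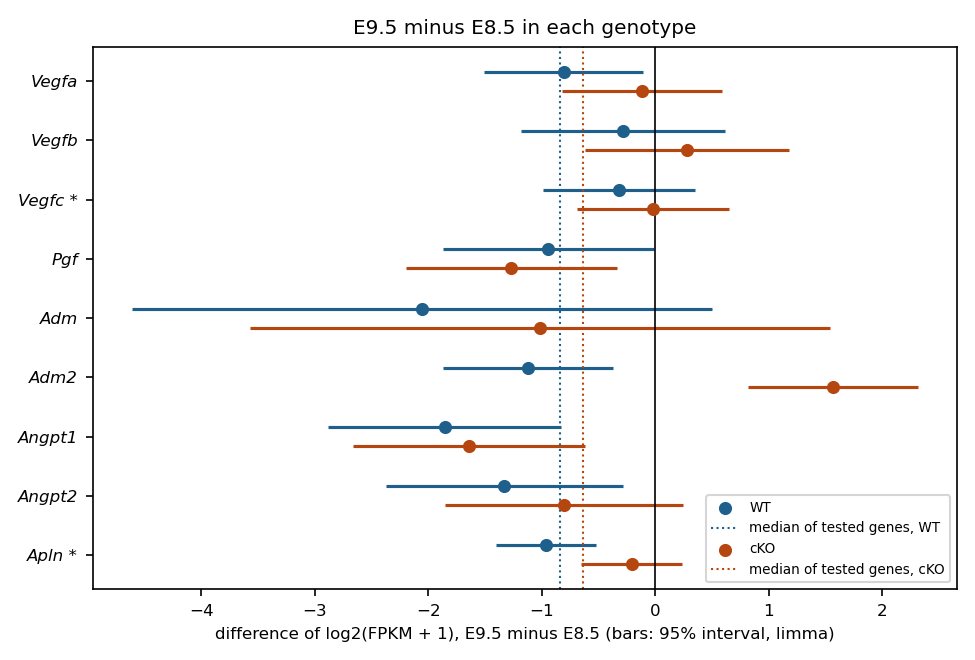
Difference of log2(FPKM + 1) between E9.5 and E8.5 for each member in WT and in cKO hearts, with the 95% interval of limma as bars and the median of the tested genes as dotted lines; members with an asterisk were tested only in the fit of all features. *Adm2* lay at -1.12 in WT and at 1.56 in cKO, and the *Angpt1* intervals lay below 0 in both.

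Ratios within a library do not depend on how libraries were scaled. These pairs were chosen after their values had been seen. *Adm2* over *Adm* was 0.0193 and 0.0567 for WT at E9.5 and 0.277 and 0.133 for cKO, without overlap. *Apln* over its receptor gene *Aplnr* was 0.0194 and 0.0311 for WT at E9.5 and 0.374 and 0.245 for cKO, and between 0.0216 and 0.0803 in the 4 E8.5 libraries. *Vegfa* over *Kdr* was 0.0924 and 0.0762 for WT at E9.5 and 0.334 and 0.112 for cKO. *Vegfa* over *Vegfb* was 0.114 and 0.169 for WT at E9.5 and 0.246 and 0.185 for cKO, again without overlap. *Angpt2* over *Angpt1* was 0.660 and 0.391 for WT at E9.5 and 0.657 and 2.32 for cKO, and those groups overlapped.

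Of the 12 receptor genes for these ligands, 11 were tested and none was called at E9.5, while *Flt1* was below the level for testing. The libraries of 3 were higher and those of 2 lower without overlap, against 21% and 31.1% of all genes, and the median was 0.03. *Ramp1*, which directs *Calcrl* toward calcitonin gene-related peptide, had the greatest difference, 1.47 (SE 0.33, adjusted p 0.119 by limma). It measured 5.30 and 6.08 FPKM in the WT hearts of E9.5 and 22.7 and 13.4 FPKM in the cKO hearts. *Tie1*, an orphan receptor partner of *Tek*, had 0.89 (adjusted p 0.330 by limma), *Ramp2*, which makes *Calcrl* an adrenomedullin receptor, 0.76 (adjusted p 0.367) and *Nrp2*, a VEGF co-receptor, -0.57 (adjusted p 0.544). With stage in WT, 3 of the 11 fell by the test and none rose, against 48.1% of all genes called, led by *Aplnr*, with -2.83 (SE 0.44, adjusted p 0.0114 by limma). *Aplnr* measured 44.2 and 26.6 FPKM in WT hearts of E8.5 and 6.77 and 2.17 FPKM a day later.

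Of 11 other secreted factors acting on vessels, 6 were tested and *Edn1*, which encodes the vasoconstrictor endothelin 1, was called higher at E9.5. In the list 1 gene was higher and 3 were lower without overlap, against 21% and 31.1% of all genes, and the median was -0.35. Of all genes, 0.18% were called. *Edn1* measured 1.11 and 1.93 FPKM for WT and 9.53 and 7.38 FPKM for cKO, a difference of 1.92 (SE 0.26, adjusted p 0.0496 by limma). Both cKO libraries were well above both WT libraries, but the call was kept in only 2 of 13 alternative fits, with differences of 1.68 to 2.44. *Apela* had -1.22, *Calca* 0.66 and *Pdgfa* -0.58, and none of these passed the test.

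Of 8 oxygen-sensing regulators, 7 were tested and none was called at E9.5. *Egln1*, a hydroxylase that marks HIF proteins for destruction, had 1.30 (SE 0.24, adjusted p 0.0943 by limma), *Hif1a* -0.91, *Vhl* 0.43 and *Epas1* -0.33. Of 18 hypoxia-inducible genes, all tested, 4 were called higher and none lower, 16 were higher without overlap, and the median was 1.0. The calls were *Ndufa4l2*, with 4.09 (adjusted p 0.0102 by limma), *P4ha2*, with 2.72 (adjusted p 0.0102), *Car9*, with 2.26 (adjusted p 0.0145), and *Egln3*, with 2.13 (adjusted p 0.0211). *Car9* was tested only because of its E9.5 cKO libraries, at 5.38 and 3.92 FPKM against 0.113 to 0.566 FPKM in the others. Of 10 integrated stress response genes, 9 were tested, 2 were called higher and none lower, 7 were higher without overlap, and the median was 1.46. *Chac1* had 3.20 (adjusted p 0.0136 by limma) and *Trib3* 2.92 (adjusted p 0.0233), while *Ddit3* had 1.78 and *Atf3* 1.46 without passing. Of all tested genes, 0.18% were called (17 higher), 21% were higher without overlap and 31.1% lower. No gene at all was called with only the 4 E9.5 libraries fitted, and none was called higher without E9.5 WT replicate 1, so the calls in these lists were lost there. Leaving out any other single E9.5 library also removed most of the higher calls among all genes. The lists were drawn up with earlier results of these data known, so their counts are no independent evidence of a direction.

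Of 10 endothelial markers 8 were tested at E9.5. The sum of the list was 105 and 97.4 FPKM for WT and 166 and 141 FPKM for cKO, 5 of the 8 were higher without overlap, where 21% of all genes were, none was called, and the median was 0.39. *Pecam1* had 1.04 (adjusted p 0.142 by limma), *Esam* 0.94 (adjusted p 0.212), *Icam2* 0.79 and *Emcn* -0.48, which was the single negative difference among the 8. The sum of the cardiomyocyte markers was 33694 and 35353 FPKM for WT and 46850 and 48348 FPKM for cKO, mostly *Actc1*, the cardiac actin gene. Of the 10 cardiomyocyte markers, 5 were higher and 1 lower without overlap and none was called. *Nkx2-5* had 0.87, *Ttn* 0.81 and *Myh7* 0.65, none of them past the test. The lower one was *Myh6*, a myosin heavy chain gene, with 916 and 777 FPKM for WT and 424 and 567 FPKM for cKO (-0.78, adjusted p 0.353 by limma). Of 10 erythroid markers, all tested, 5 were higher without overlap and none was called, with a median of 0.90. Their sum was 16368 and 34101 FPKM for WT and 44980 and 33247 FPKM for cKO, with overlap. *Alas2*, the erythroid enzyme of heme synthesis, had 1.37 (adjusted p 0.179 by limma). The part of any of these lists in the members' values was not tested. The trophoblast sum was 52.5 and 87.3 FPKM for WT at E9.5 and 86.1 and 69.4 FPKM for cKO, most of it *Hand1*. Without *Hand1* the other 9 markers summed to 7.15 and 15.6 FPKM for WT and 35.6 and 20.2 FPKM for cKO, without overlap. Of the 7 tested, 3 were higher without overlap, *Rhox6*, *Rhox9* and *Ascl2*, and none was called. *Rhox6* measured 1.96 and 4.83 FPKM for WT and 14.8 and 11.5 FPKM for cKO, while *Prl3d1* was at 1.06 and 3.0 beside 4.82 and 0.568 FPKM. The part of these markers in the E9.5 values of the members was not tested.

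**Figure D5:**
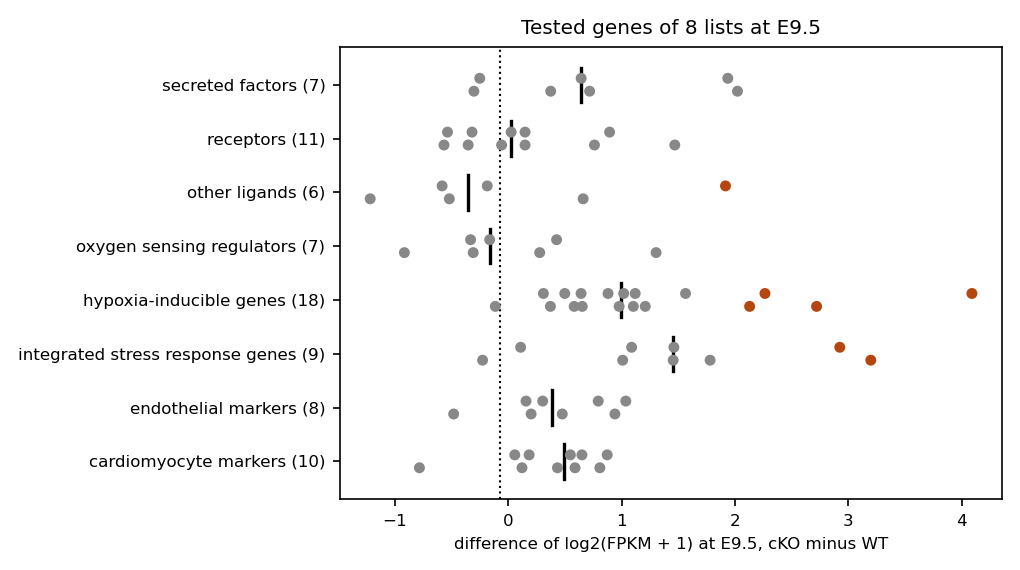
Differences of log2(FPKM + 1) at E9.5, cKO minus WT, for the tested genes of 8 lists, with the number tested in brackets, a bar at each median, the median of all tested genes as a dotted line and called genes in orange. The called genes were *Edn1* among the other ligands, 4 hypoxia-inducible genes and 2 integrated stress response genes.

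The pattern over the 8 libraries was compared with every other tested gene by Pearson's correlation of log2(FPKM + 1), as a description over libraries that share groups and scaling. The genes most like *Adm2* were *Wdr91* (r = 0.990), *Shmt2* (0.984), which encodes the mitochondrial serine hydroxymethyltransferase, and *Cpt1c* (0.979). *Shmt2* measured 46.1 and 41.5 FPKM in the WT hearts of E9.5 and 152 and 121 FPKM in the cKO hearts. Those most like *Vegfa* were *Klf7* (0.973), *Gramd1a* (0.949) and *Junb* (0.946), an immediate early transcription factor gene. *Adm* was nearest to *Sin3b* (0.958), *Kctd13* (0.930) and *Hmox1* (0.924), the heme oxygenase gene, which had 108.6 FPKM in E8.5 cKO replicate 2 and 8.88 to 49.4 FPKM in the others. *Angpt2* was nearest to *Mmp9* (0.972), *Usp53* (0.972) and *Oas1a* (0.964), *Angpt1* to *Pggt1b* (0.997), *Pgf* to *Glud1* (0.993) and *Vegfb* to *Klhl36* (0.976). Among the members themselves the highest correlation was that of *Angpt1* and *Angpt2*, at 0.819, followed by *Pgf* and *Angpt1* at 0.749. *Adm2* correlated at 0.707 with *Vegfb* and at 0.0889 with *Adm*.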

How the data were processed

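Hearts were sequenced after amplification with a SMARTer kit (per the labels), and the labels name BWA and mm9. The authors deposited FPKM values per gene, and the program that made them is not given in the sources used here. Gene positions matched GRCm38: of 9515 genes, 91.7% started within 1000 bp. Columns named mu and nc were read as cKO and WT. No column was left out (0). Among 24930 entries, 285 symbols were listed more than once, and each kept the entry with the highest mean. FPKM hold no counts, so depth was read only as relative depth, from genes under 0.3 FPKM.

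The 10018 genes that averaged 1 FPKM or more were tested on log2(FPKM + 1), which understates changes of low genes, by limma 3.58.1 (R 4.3.3), where a single model held the 4 groups and a mean-variance trend, two-sided, with Benjamini-Hochberg adjustment over all tested genes. Calls needed an adjusted p under 0.05 together with a change of 1.5-fold or more. Members below the minimum were read from the fit without it. The code was tested on simulated data. All 9 members were named, with up to 4 genes of each list by size of the E9.5 difference. Other marker genes (such as *Prl3d1*, *Prl8a2*, *Hand1* and *Actc1*) were named after their values were seen. The members and lists were chosen with earlier results of these data known. Other scalings, pseudocounts, filters, a replicate block and leaving out each library were tried as alternatives.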

Additional observations from a re-analysis of the deposited data

Results flagged for a closer look

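For *Adm2* both cKO libraries were below WT at E8.5 and above WT at E9.5, although neither difference passed the test by limma. The E8.5 difference was -0.66, and -1.13 to -0.20 when each library in turn was left out, with the weakest value without E8.5 cKO replicate 2. At E8.5, 40.1% of all genes were lower in the cKO without overlap. The gene met the filter of 1 FPKM only through its E9.5 cKO libraries. The interaction, E9.5 minus E8.5, was 2.69 on the log2(FPKM + 1) scale (unadjusted p 0.000389, adjusted p 0.238 by limma), and it was 2.22 to 3.15 when each library in turn was left out.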

How the results depend on the processing

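The number of members called depended on scaling. After median-ratio scaling it was 1 at E9.5 (*Adm2*), 0 for the stage comparison in WT and 1 for that in cKO, and after quantile normalization it was again 1, 0 and 1. Scaled on loci of at least 300 bp WT gave 5, where 119 of all tested genes were called higher and 6286 lower. With only the 4 libraries compared WT also gave 5, where 184 of all tested genes were called higher and 5440 lower. With a mean of at least 5 FPKM required, both stage comparisons gave 0, but only 2 members, *Vegfb* and *Adm*, were then tested and neither had been called before. Without a filter cKO gave 1, where 90 of 19580 features were called higher and 1098 lower. Leaving out single libraries also changed the number of members called in the stage comparisons and the interaction. Calls among all genes changed in those fits too, which keep a lone library in a group. Median-ratio scaling and quantile normalization moved the median of all genes in the WT stage comparison from -0.84 to -0.04 and -0.02, and scaling on loci of at least 300 bp moved it to -1.01. The cause of the other shifts was not tested.

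Some differences that had not been called changed sign. At E8.5 *Vegfa* was -0.034 and *Vegfb* -0.0029 when scaled on loci of at least 300 bp, and *Angpt2* was 0.13 and 0.093 after median-ratio scaling and quantile normalization. After the same scalings *Vegfb* was 0.54 and 0.65 for the stages in WT, *Vegfa* 0.36 and 0.51 in cKO, and the *Angpt1* interaction -0.082 and -0.12. With each library left out in turn, the ranges that crossed 0 were, at E9.5, -0.61 to 0.11 for *Pgf* and -0.88 to 0.28 for *Angpt1*. At E8.5 they were -0.19 to 0.25 for *Vegfa*, -0.35 to 0.51 for *Vegfb*, -0.42 to 0.57 for *Pgf*, -1.01 to 2.81 for *Adm* and -0.83 to 0.52 for *Angpt2*. Between stages they were -0.58 to 0.0092 for *Vegfb* in WT, and in cKO -0.49 to 0.26 for *Vegfa*, -0.15 to 0.71 for *Vegfb* and -2.93 to 0.89 for *Adm*. For the interaction they were -0.82 to 0.17 for *Pgf*, -0.87 to 2.94 for *Adm*, -0.37 to 0.80 for *Angpt1* and -0.15 to 1.20 for *Angpt2*. The E9.5 differences of *Vegfa*, *Vegfb*, *Adm*, *Adm2* and *Angpt2* kept their sign in every alternative.

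Same-numbered libraries did not deviate together (correlations of 0.017, -0.004, -0.116 and -0.047 in the 4 comparisons), so the numbers were not used as pairs. With the replicate number as a block, 0 members were called at E9.5 and at E8.5, 2 in WT and 2 in cKO, and 0 for the interaction. All-gene calls were 12 at E9.5 instead of 18, 145 higher and 4523 lower in WT, and 178 higher and 2441 lower in cKO. With the pairing crossed for the WT stages, chosen after seeing the data, 2 members and 4393 genes were called.

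With 2 libraries a group and most members at a few FPKM, the depth of single values is unknown and small differences were not detectable.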
